A study of Mus musculus with 8 samples.

Results

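The data described here are the open chromatin regions at 6 genes of the mouse pyruvate dehydrogenase system in fasted liver. The genes are the kinases Pdk1, Pdk2, Pdk3 and Pdk4 and the catalytic subunits of the phosphatase, Pdp1 and Pdp2. A region belonged to a gene when that gene was the nearest protein-coding gene, by distance to the gene's span with a limit of 100 kb. This gave 25 of the 49587 consensus regions of the study, with 10 at Pdk4, 5 at Pdk2, 3 at Pdk1, 3 at Pdp2, 2 at Pdk3 and 2 at Pdp1. The assay was ATAC-seq, which reads where a transposase can reach the DNA, on flash-frozen livers of 9-week-old male C57BL/6 mice after 24 h without food. There were 8 libraries, 2 for each of 4 genotypes: wild type, Cpt2 L-/- (a liver knockout of the mitochondrial carnitine palmitoyltransferase), Ppara -/- (a knockout of the fatty acid receptor PPARα) and Cpt2 L-/- ; Ppara -/-. The labels call the Ppara knockout whole-body in the double knockout, and the driver of the liver deletion is not given in the sources used here. Wild type and Cpt2 knockout are called Ppara-intact below, and Ppara knockout and double knockout Ppara-null. Nothing says whether the libraries of a genotype came from separate mice, so the spread between them may be technical.

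Pyruvate dehydrogenase, a complex of the mitochondrial matrix, turns pyruvate into acetyl-CoA and so commits carbon from glucose to oxidation or fat synthesis. The kinases phosphorylate the complex and switch it off, and the phosphatases remove the phosphate and switch it on again. In the fasted liver the complex is largely kept off, which spares pyruvate for glucose synthesis while fatty acids are burned. Pdk4 is the kinase gene best known for induction by fasting and is a textbook target of PPARα. Pdk2 is the widely expressed kinase of the liver.

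The measure is a peak call. A library called a region if any peak of its deposited list overlapped it by at least 1 bp. Each peak carries the deposited −log10 p and the deposited fold, which is the pileup at the summit over the local background. A region is termed separated by Ppara status when all 4 libraries of one status called it and none of the other did. The peak lists held 28733 to 39296 peaks with Ppara and 18132 to 22715 without it. Each count was therefore also made in equal-number lists, which hold the strongest 18132 peaks of each library by −log10 p. The smallest −log10 p kept in these lists was 21.8 to 37.9 with Ppara and 7.77 to 14.6 without. The numbers inside the peak names were 441 and 443 in wild type 1 and 2 and 446 and 4717 in Cpt2 knockout 1 and 2. Without Ppara they were 6831 to 6834. The labels do not say what these numbers mean. Should they mark a batch, it cannot be told apart from the Ppara genotype. Of 10 hepatocyte marker genes, 9 had a region called in all 8 libraries. Of the lists for other cell types, 1 of the 5 endothelial genes had such a region, and no gene of the Kupffer cell, stellate, cholangiocyte or lymphocyte lists did. Of the 5 genes in each of these lists, 3, 4, 3 and 1, in that order, had any consensus region.

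The upstream windows of 3 start sites are shown because the comparisons below turn on whether peaks sit on or beside a start site. They are the 250 bases before the start site, 5′ to 3′ in the direction of transcription, from RefSeq on GRCm38.p6, the assembly of mm10. Capitals mark matches to any of 3 motifs on either strand: the CCAAT box (CCAAT), the E-box (CACGTG) and the GC box (GGGCGG). Pdk2 has a second start site inside the gene, and the window shown precedes the first, whose region was called in all libraries.
Pdk4, chr6:5496279-5496528, minus strand: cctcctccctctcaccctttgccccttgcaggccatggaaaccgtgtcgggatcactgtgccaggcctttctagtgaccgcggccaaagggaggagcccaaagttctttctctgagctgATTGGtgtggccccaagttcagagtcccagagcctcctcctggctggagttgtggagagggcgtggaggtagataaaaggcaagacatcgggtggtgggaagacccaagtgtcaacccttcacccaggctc
Pdk2, first start site, chr11:95041372-95041621, minus strand: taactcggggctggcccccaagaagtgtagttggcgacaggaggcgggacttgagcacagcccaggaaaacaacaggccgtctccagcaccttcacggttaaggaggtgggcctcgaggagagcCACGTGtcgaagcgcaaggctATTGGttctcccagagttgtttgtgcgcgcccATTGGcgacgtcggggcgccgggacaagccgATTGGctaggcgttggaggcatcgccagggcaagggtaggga
Pdp2, chr8:104591222-104591471, plus strand: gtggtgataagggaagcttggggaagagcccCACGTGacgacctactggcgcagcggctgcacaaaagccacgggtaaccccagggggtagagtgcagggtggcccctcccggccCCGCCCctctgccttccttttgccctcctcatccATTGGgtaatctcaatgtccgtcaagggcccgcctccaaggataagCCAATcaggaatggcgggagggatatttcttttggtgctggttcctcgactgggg

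Of the 6 genes, 5 had entries in the RefSeq promoter table, with 7 windows between them, and Pdp1 had none. The CCAAT box was found in 4 of these 7 windows, against 33.85% of all 32851 windows in the table. The first Pdk2 window held it 3 times, all in reverse, and the Pdk4 window held it once, in reverse, 131 to 127 bases before the start. The E-box was found in 2 windows, those of Pdp2 and the first Pdk2 start site, against 6.02% of all windows. The GC box was found in 3, against 32.74%. No window held AGGTCA, the half-site of many nuclear receptors (14.02% of all windows), the direct repeat of this half-site with 1 base between (0.03%) or the forkhead letters TGTTTAC (3.17%). The half-site is part of the direct repeat. These are matches of letters and not sites of binding.

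At Pdk4 (chromosome 6, 5483351 to 5496278, minus strand) the start site was called in every library. Upstream of it, 2 regions were called in all libraries with Ppara and in none without. The region over the Pdk4 start site spans 5495965 to 5496845. In the order wild type 1 and 2 and Cpt2 knockout 1 and 2, its −log10 p was 119, 176, 184 and 171, and its fold 11.5, 11.4, 11.6 and 10.5. In Ppara knockout 1 and 2 the −log10 p was 53.5 and 54.9, and the fold 9.04 and 9.70. In double knockout 1 and 2 the −log10 p was 135 and 89.6, and the fold 14.2 and 11.6. The median fold of a whole list was 6.56 to 7.46 with Ppara and 5.65 to 6.08 without, and the fold at this start site was above it in each list. Read depth is unknown, so these values are not compared between libraries. Within each full list this region lay at percentile 92.2 or above by −log10 p. The summit lay at -214 to -191 bp from the start site (negative is upstream) in 6 libraries, and at -251 and -345 bp in Ppara knockout 1 and 2.

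The region nearest upstream of Pdk4, at 5498718 to 5499183, lay 2440 bp outside the gene. Its −log10 p was 23.2 and 69.0 in wild type 1 and 2 and 74.5 and 43.8 in Cpt2 knockout 1 and 2, with folds of 4.48, 6.46, 6.72 and 4.91. No Ppara-null library called it. The 4 summits lay at -2727 to -2685 bp from the start site. The same 4 libraries still called it in equal-number lists and with a minimum −log10 q of 20. Both settings only remove peaks, so they could not add a call in a Ppara-null library.

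A further upstream region, at 5509233 to 5510158, lay 12955 bp outside the gene. Its −log10 p was 22.5 and 91.2 in wild type 1 and 2 and 60.8 and 102 in Cpt2 knockout 1 and 2. The folds were 6.83, 13.0, 10.3 and 12.1, and again no Ppara-null library called it. In 3 libraries the summit lay at -13660 or -13659 bp, and in wild type 1, where 2 peaks overlapped the region, the stronger had its summit at -13689 bp. The separation held in equal-number lists, where wild type 1 ranked it at percentile 2.64 and the region at 2440 bp at 5.36, close to the end of its list. With a minimum −log10 q of 20, and also when a peak had to cover 50% of the region, 3 of the 4 Ppara-intact libraries called the farther region. In a two-sided Fisher's exact test over all 49587 regions, a full separation gave p = 0.0286, the smallest that 4 against 4 libraries can give, and a Benjamini-Hochberg adjusted p of 0.4145. Neither region passed after adjustment, nor did any other region of the study, and 3418 regions reached the unadjusted value.

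The other 7 regions of Pdk4 were called less regularly. The region 12025 bp beyond the 3′ end of the gene, at 5470827 to 5471326, was called in 7 libraries, all but Ppara knockout 2, and was chosen for mention after its values were seen. Its −log10 p was 21.3 and 55.3 in wild type, 46.3 and 61.1 in Cpt2 knockout, 25.1 in Ppara knockout 1 and 38.9 and 23.2 in double knockout. A region 8972 bp beyond the 3′ end, at 5474041 to 5474379, was called in both Cpt2 knockouts, at a −log10 p of 35.2 and 20.7, in double knockout 1 at 14.0 and in no wild type library. Inside the gene, both wild type libraries called 5485058 to 5485430 at 16.6 and 11.1, Cpt2 knockout 1 at 26.1 and double knockout 2 at 10.8. Near the 3′ end, the region at 5482404 to 5482766 was called in Cpt2 knockout 2 alone. The remaining 3 were called in 1 or 2 Ppara-intact libraries.

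**Figure D1:**
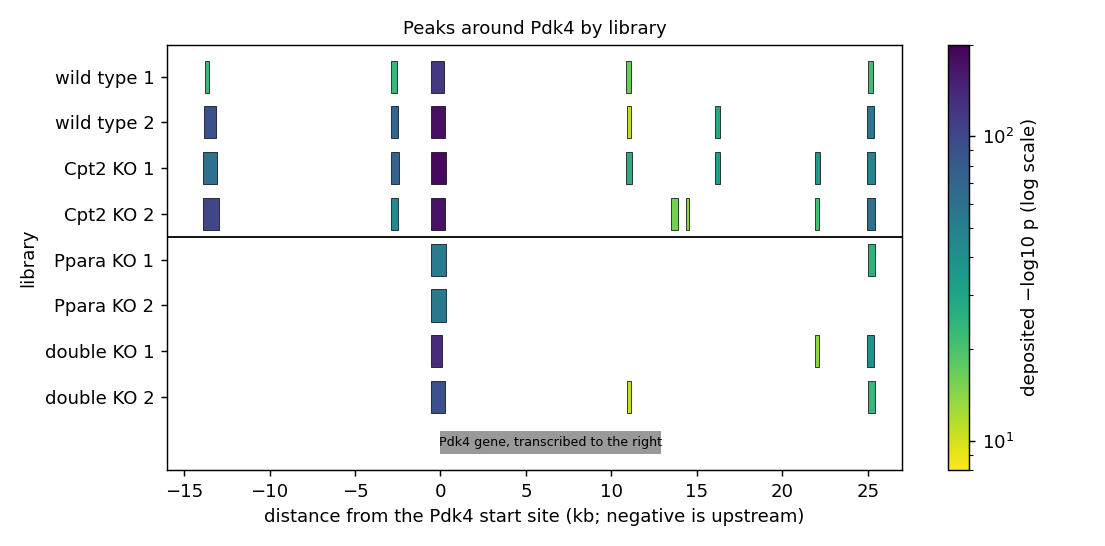
Peaks around Pdk4 by library, with the distance from the start site in kb on the horizontal axis (negative is upstream), 1 row per library and colour for the deposited −log10 p on a log scale; the line divides Ppara-intact from Ppara-null libraries. The region over the start site is present in all 8 rows, and the regions 2440 bp and 12955 bp outside the gene in the upper 4 rows; a region called in Cpt2 knockout 1 alone, 93478 bp outside the gene, lies beyond the plot.

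Pdk2 (chromosome 11, 95026258 to 95041371, minus strand) had 2 regions in all 8 libraries. The first, at 95041186 to 95041722, covers the first start site. Its −log10 p was 125 and 151 in wild type, 172 and 90.1 in Cpt2 knockout, 38.0 and 26.9 in Ppara knockout and 34.5 and 48.4 in double knockout. The second lies inside the gene, with its midpoint 2523 bp after the start site, at 95038663 to 95039033, and within 1 kb of the non-coding gene Gm11513. Its −log10 p was 34.0 and 53.6 in wild type, 74.8 and 78.9 in Cpt2 knockout, 23.8 and 16.2 in Ppara knockout and 40.2 and 31.3 in double knockout. The second start site of Pdk2 lies at the upstream edge of a region at 95040449 to 95040882. Each Ppara-intact library called this region, at a −log10 p of 27.8 and 31.7 in wild type and 40.1 and 19.98 in Cpt2 knockout. The Ppara-null libraries did not call it. Only the peak of Cpt2 knockout 1, which ended at 95040882, reached the second start site. The peaks of wild type 1, wild type 2 and Cpt2 knockout 2 ended short of it, at 95040804, 95040795 and 95040789. In equal-number lists wild type 1 and Cpt2 knockout 1 alone kept the region. The other 2 regions of Pdk2 were called in 1 library each, one of them 905 bp upstream of the gene in wild type 2.

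Pdk1 (chromosome 2, 71873215 to 71903858, plus strand), a kinase known for its induction in low oxygen, has 2 start sites. No region covered the second, which lies inside the gene. The first, called the Pdk1 start site here, was covered by a region at 71872831 to 71873741 in all 8 libraries. The −log10 p was 71.6 and 107 in wild type, 105 and 69.4 in Cpt2 knockout, 30.4 and 22.9 in Ppara knockout and 30.5 and 15.0 in double knockout. A region of lower −log10 p just downstream (71873834 to 71874167) had peaks in the 4 Ppara-intact livers, at 17.3 and 21.8 in wild type and 38.6 and 12.3 in Cpt2 knockout, and in no Ppara-null library. Cpt2 knockout 1 alone kept it in equal-number lists, at percentile 1.22. Further inside the gene, both Cpt2 knockouts and wild type 2 called 71892704 to 71893328, at a −log10 p of 17.0 to 24.1. Pdk3 (chromosome X, 93764616 to 93832150, minus strand) had its start site covered at 93831947 to 93832353. Its −log10 p was 12.4 and 14.0 in wild type, 19.4 and 13.2 in Cpt2 knockout and 8.54 in Ppara knockout 2, and the other 3 Ppara-null libraries did not call it. No library kept it in equal-number lists.

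Pdp1 (chromosome 4, 11958183 to 11966450) encodes the calcium-stimulated phosphatase. All 8 libraries called a region over the end of the gene at 11966450, spanning 11965738 to 11966956. No strand or start site was available here for Pdp1, so whether this is the 5′ or the 3′ end was not determined. The −log10 p of the region was 58.8 and 65.4 in wild type and 60.4 and 54.8 in Cpt2 knockout. It was 24.8 and 51.0 in Ppara knockout and 43.1 and 30.1 in double knockout. This region lies within 1 kb of the non-coding gene 1700123M08Rik. A second region, 61349 bp outside Pdp1 at 11896509 to 11896834, had peaks only in the 4 libraries with Ppara. Its −log10 p was 24.2 and 35.6 in wild type and 19.6 and 26.96 in Cpt2 knockout. Wild type 1 alone kept it in equal-number lists. Pdp2 (chromosome 8, 104591472 to 104599026, plus strand), the phosphatase of liver and fat, had its start site covered at 104591077 to 104591742 in all 8 libraries. The −log10 p was 40.5 and 65.6 in wild type, 71.0 and 52.3 in Cpt2 knockout, 33.4 and 14.7 in Ppara knockout and 23.7 and 13.4 in double knockout. A region directly downstream, at 104591838 to 104592282, had 49.2 and 68.9 in wild type, 115 and 69.3 in Cpt2 knockout and 25.2 in double knockout 1, and was missing from both Ppara knockouts and double knockout 2. Its summit lay 613 bp after the start site in each of the 5 libraries that called it. The region at the 3′ end of Pdp2, at 104598555 to 104598758, was called in wild type 2 alone.

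**Figure D2:**
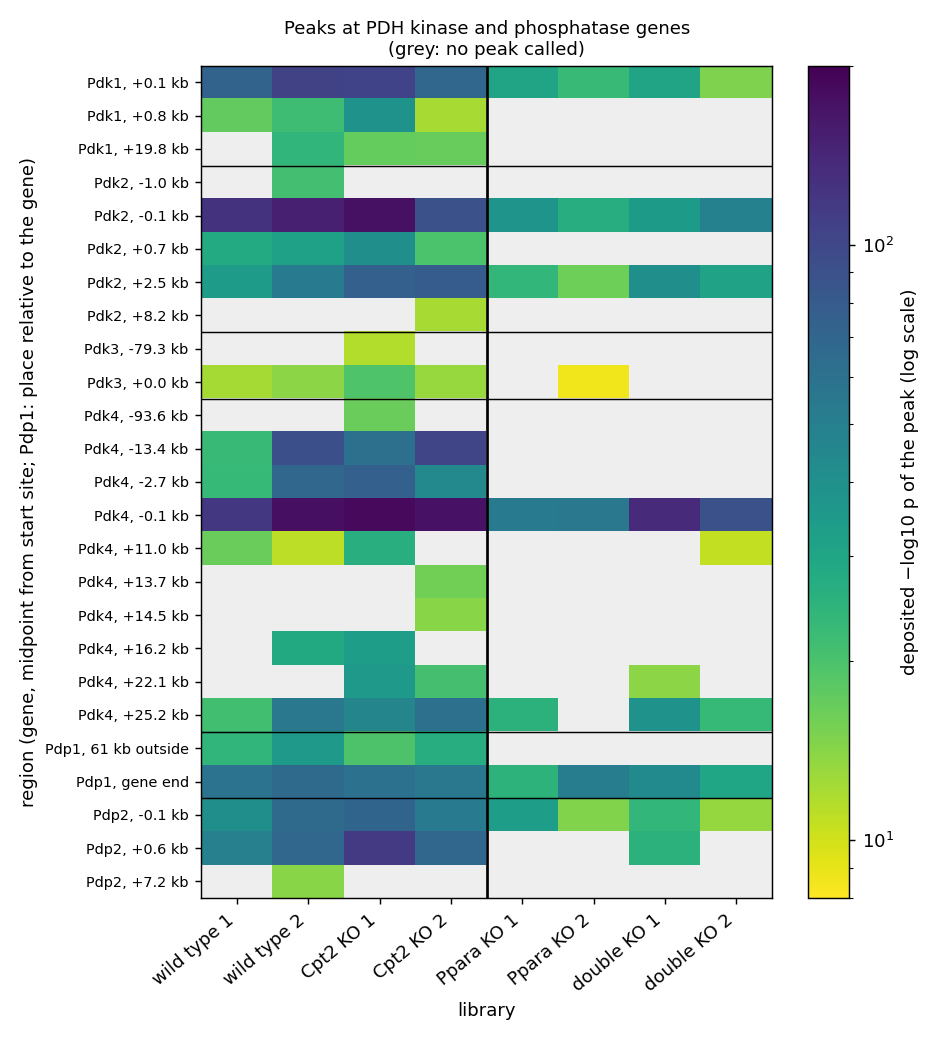
Peaks at the 25 regions by library, with regions in rows (gene and distance of the region's midpoint from the start site, or for Pdp1 the place relative to the gene), libraries in columns and colour for the deposited −log10 p on a log scale; grey means no peak was called. The thick line divides Ppara-intact from Ppara-null libraries, and 5 rows are filled throughout on its left and empty on its right.

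Over all 6 genes, 5 of the 25 regions (20%) were called in all 4 libraries with Ppara and in none without, against 6.82% of all consensus regions. They were the 2 upstream of Pdk4 and 1 each at Pdk1, Pdk2 and Pdp1. In equal-number lists 2 of the 25 remained (8.0%), both at Pdk4, against 0.811% of all regions. None of the 25 showed the opposite pattern, against 0.0686% of all regions, and 0.512% in equal-number lists. Regions called in all 8 libraries numbered 6 of the 25 (24.0%), close to the 22.7% of all regions, and 7 (28.0%) were called in a single library, against 23.0%. The Ppara-intact libraries called 15, 19, 20 and 19 of the 25 regions and the Ppara-null libraries 7, 7, 9 and 8, so the statuses did not overlap. Over all consensus regions the statuses did not overlap either, with 56.9% to 77.7% called with Ppara and 35.5% to 44.5% without. In equal-number lists the counts were 10 to 12 and 6 to 8 of the 25, while the share of all regions was 35.3% to 36.4% in every library. Endothelial, cholangiocyte and stellate cell markers also had fewer calls without Ppara. The endothelial list had 12 to 27 of 37 regions called with Ppara and 4 to 6 without, the cholangiocyte list 6 to 11 and 0 to 2 of 13, and the stellate list 4 to 6 and 0 to 2 of 11. The Kupffer cell list had 0 to 2 and 0 to 1 of 4, and the lymphocyte list 1 and 0 to 1 of 1. The hepatocyte list had 53 to 65 and 39 to 48 of 90. In whole liver, fewer cells of a type and less open chromatin per cell cannot be told apart, and the part of these shifts in the calls at the 6 genes was not tested.

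**Figure D3:**
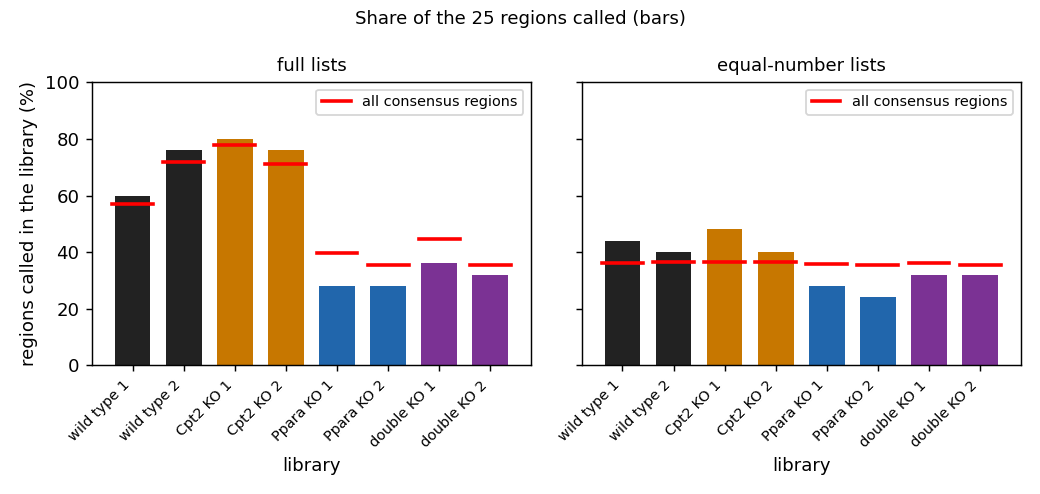
Share of the 25 regions called in each library (bars, in percent) with the share of all consensus regions (red line), for full lists on the left and equal-number lists on the right. In full lists the bars stand at 60.0% to 80.0% with Ppara and 28.0% to 36.0% without.

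The pairs of genotypes share libraries and so are not independent of each other. With 2 libraries against 2 no test was made, and a region counted when both libraries of one genotype and neither of the other called it. In Ppara knockout against wild type, 7 of the 25 regions were called only in wild type (28.0%, against 13.6% of all regions) and none only in the knockout (0.46% of all). These were the 5 separated by Ppara status, the region inside Pdk4 and that downstream of the Pdp2 start site. In equal-number lists 3 counted, the 2 upstream of Pdk4 and that at Pdp2 (12.0%, against 3.44%), and none in the other direction (2.38% of all). In double knockout against wild type, 6 were called only in wild type (24.0%, against 12.9%) and none only in the double knockout (1.2% of all), and the sixth was the Pdk3 start site. In equal-number lists this count was 2 (8.0%, against 3.35%), both upstream of Pdk4, and none in the other direction (3.08% of all). Without wild type 1 the counts in full lists were 11 for Ppara knockout and 10 for double knockout. The shares of all regions were not counted without this library, so the shares above are no background for these counts. In double knockout against Cpt2 knockout, 7 regions were called only in Cpt2 knockout (28.0%, against 20.4%) and none only in double knockout (0.597% of all). In equal-number lists 2 counted (8.0%, against 2.99%), again those upstream of Pdk4, with none in the other direction (2.61% of all).

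Loss of Cpt2 was compared at each Ppara status. In Cpt2 knockout against wild type, 1 region was called only in Cpt2 knockout (4.0%, against 3.63% of all regions), the one 8972 bp beyond the 3′ end of Pdk4, and none only in wild type (0.512% of all). In equal-number lists no library called that region, and none of the 25 counted in either direction (0.918% and 0.815% of all). Leaving out any of these 4 libraries gave 2 to 5 regions, and without wild type 1 the direction turned, with 1 for Cpt2 knockout and 2 for wild type. Shares of all regions were not counted with a library left out. In double knockout against Ppara knockout no region counted in either direction (2.33% and 1.45% of all; 2.03% and 1.84% in equal-number lists). By Cpt2 status over all 8 libraries none of the 25 was separated, against 0.0968% of all regions called in the 4 Cpt2-null libraries alone and 0.00605% in the 4 Cpt2-intact ones. In equal-number lists it was again none, against 0.0403% and 0.0544%.

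Regions called in all 8 equal-number lists allow a comparison of ranks, since those lists have the same length. There were 9073 such regions, 6 of them at the 6 genes: the start sites of Pdk1, Pdk2, Pdk4 and Pdp2, the end of Pdp1 and the inner region of Pdk2. Their percentile by −log10 p was tested with limma over all 9073. By Ppara status none of the 6 passed a Benjamini-Hochberg adjusted p of 0.05, where 0.22% of all regions were higher and 0.253% lower in Ppara-null libraries. At an unadjusted p under 0.05 there was 1 of the 6, the end of Pdp1, against 8.01% of all regions higher and 11.1% lower in Ppara-null libraries. In the exact permutation test there was none. On simulated data the limma test recovered 0 of 200 regions shifted by 20 percentile points in Ppara-null libraries (median estimated difference 26.1). It recovered 102 of 200 regions shifted by 40 points (median estimated difference 50.6). The shifted regions were all of middle rank, so these rates do not describe regions near the top of the lists, such as the Pdk4 start site. A region that did not pass is therefore not shown to have equal ranks. The Pdk4 start site stood at percentile 94.4 ± 1.8 in Ppara-intact and 95.5 ± 3.6 in Ppara-null libraries (SD, n = 4 each), a difference of 1.16 ± 2.85 (SE, limma adjusted p = 0.868). Ranked by fold the difference was 25.75 (limma adjusted p = 0.102), and within full lists it was -1.15. Its percentile was 92.6 and 94.0 in wild type, 93.9 and 97.0 in Cpt2 knockout, 91.3 and 94.0 in Ppara knockout and 98.8 and 98.1 in double knockout. The double knockout libraries were thus above the 6 others, but double knockout exceeded Ppara knockout by 5.83 ± 4.04 points (SE, limma adjusted p = 0.553). The split of double knockout from the 6 others was not a planned comparison. The share of the 9073 regions that show it was not counted.

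The ranks of the other 4 regions that cover a start site or gene end spread more between libraries. The end of Pdp1 ranked at 49.4 ± 12.5 in Ppara-intact and 74.1 ± 15.5 in Ppara-null libraries (SD, n = 4 each), a difference of 24.7 ± 9.70 (SE, limma adjusted p = 0.252). It was 2.37 within full lists (limma adjusted p = 0.837) and 15.4 without Ppara knockout 2. Its Ppara knockout 1, at 55.2, lay below wild type 1, at 67.3, so the statuses overlapped. The Pdk1 start site ranked at 72.5 ± 6.6 and 53.4 ± 19.3 (SD, n = 4 each), a difference of -19.2 ± 8.23 (SE, limma adjusted p = 0.285), with double knockout 2 lowest at 25. It was -8.08 ranked by fold, -29.3 within full lists and -10.6 without double knockout 2. The Pdk2 start site ranked at 88.6 ± 7.0 and 76.4 ± 10.2 (SD, n = 4 each; difference -12.2, limma adjusted p = 0.379). This difference was -1.91 ranked by fold and -6.51 without double knockout 1. The Pdp2 start site ranked at 46.0 ± 3.2 and 39.4 ± 25.2 (SD, n = 4 each; difference -6.58, limma adjusted p = 0.813), and the difference was 13.3 ranked by fold and -28.4 within full lists.

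Among the 6 regions, the inner one of Pdk2 had ranks that did not overlap between libraries with and without Cpt2. How many of the 9073 regions did the same was not counted, and no alternative ranking was run for Cpt2 status. The inner region of Pdk2 stood at 33.6 and 31.2 in wild type and 53.9 and 70.7 in Cpt2 knockout. It stood at 52.4 and 34.6 in Ppara knockout and 74.4 and 73.2 in double knockout. The closest values of the 2 sides were 52.4 in Ppara knockout 1 and 53.9 in Cpt2 knockout 1. All 4 Cpt2-null libraries were above all 4 Cpt2-intact ones, by 30.1 ± 5.86 points on average (SE), but limma's adjusted p was 0.271. The exact permutation p was 0.0286, the smallest that 4 against 4 can give, and 0.818 after adjustment over the 9073 regions. The difference was 29.9 ± 8.29 points with Ppara and 30.3 ± 8.29 without it (SE; limma adjusted p = 1 and 0.197), and these 2 values differed by 0.39 ± 11.7 points (SE, limma adjusted p = 1.00). Of all 9073 regions, 0.011% passed the adjusted threshold as higher in Cpt2-null libraries and 0% as lower. None of the 6 did, and this region alone had an unadjusted p under 0.05, against 4.74% of all regions higher and 6.56% lower in Cpt2-null libraries. Ranked within full lists its difference by Ppara status turned from 11.3 to -10.5, neither past the threshold.

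**Figure D4:**
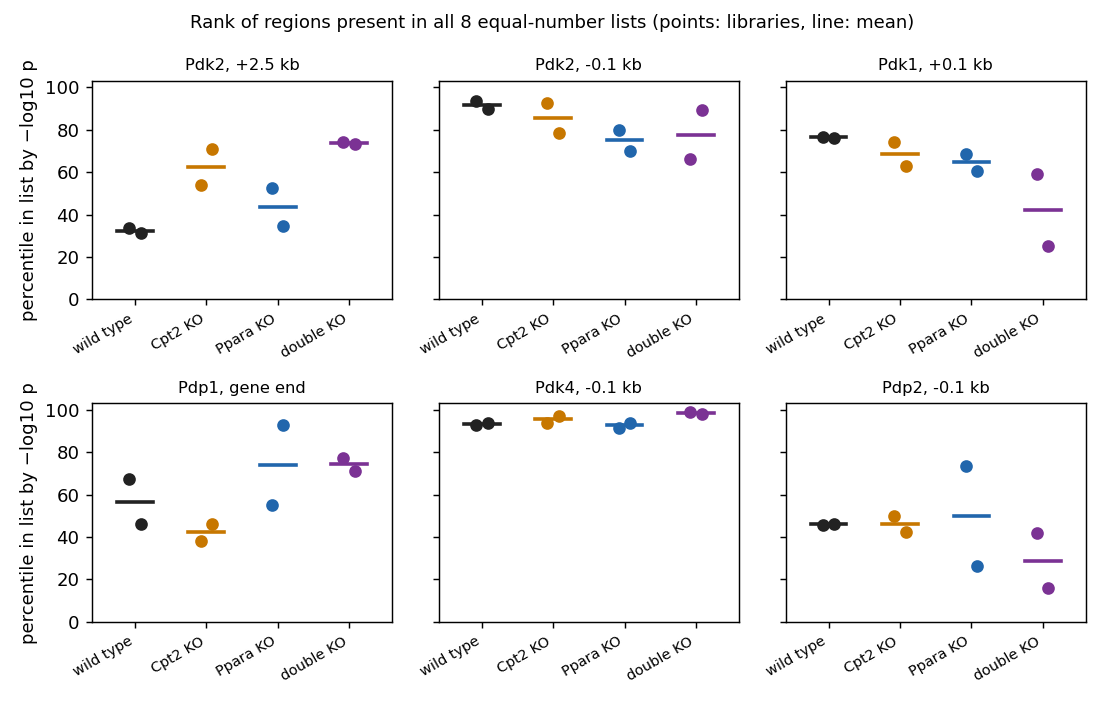
Percentile by −log10 p within equal-number lists for the 6 regions called in all 8 of them, by genotype, with points for libraries and lines for means. The Pdk4 start site lies above percentile 91 in every library, and the inner Pdk2 region lies higher in both Cpt2-deleted genotypes than in their Cpt2-intact counterparts.

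The genes that work with these kinases and phosphatases were described from a list of 30, with 177 regions. Genes of the complex itself (Pdha1, Pdhb, Dlat, Dld, Pdhx and the phosphatase regulator Pdpr) had 9 regions, of which 6 were called in all 8 libraries and none was separated by Ppara status in either direction. Genes of pyruvate transport and use had 79 regions, of which 5 (6.3%) were called in Ppara-intact libraries only: 2 at Ldha, lactate dehydrogenase, and 1 each at Mpc1, a subunit of the mitochondrial pyruvate carrier, Pcx, pyruvate carboxylase, and Gpt, alanine aminotransferase. The highest ranked of these lay 2922 bp from Ldha (chromosome 7, 46838868 to 46839352), at a mean percentile of 56.4 by −log10 p in the 4 full Ppara-intact lists. Among the branched-chain counterparts Bckdk and Ppm1k, the phosphatase Ppm1k had 1 region separated in each direction, the one called with Ppara lying 5459 bp from the gene. None of the 7 regions of the lipoyl cofactor genes was separated. Of the 74 regions of transcription regulators known for Pdk genes, 12 (16.2%) were called in Ppara-intact libraries only, 7 of them at the targeted Ppara itself and 1 inside Foxo1 (chromosome 3, 52290667 to 52291340), at a mean percentile of 65. The 30 genes together gave 18 regions called with Ppara only (10.2%, against 6.82% of all regions) and 1 without (0.0686% of all regions). In equal-number lists they gave 3 and 1, against 0.811% and 0.512% of all regions.

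By the number of its regions called in each library, Pdk4 stood at 5 and 6 of 10 in wild type, 8 and 7 in Cpt2 knockout, 2 and 1 in Ppara knockout and 3 and 3 in double knockout. Among 1309 genes with at least 8 regions, the 5 whose shares over the 8 libraries lay nearest by Euclidean distance were Supt3, Slc6a6, Corin, Actn4 and Lrmda, at distances of 0.141 to 0.171. They had 0 to 3 regions called in Ppara-intact libraries only, against 2 at Pdk4.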

How the data were processed

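Peak lists and a table of consensus intervals were analysed. Per the submitters' processing notes, BWA and MACS2 2.1.0 were used on mm10, and per the peak names in the files each library was called separately; how duplicates and the Tn5 offset were handled is not given in the sources used here. The deposited score is 10 times the −log10 p rounded down. The deposited fold is the ratio of summit pileup to local background, and the deposited −log10 p and −log10 q are MACS2's. They are given per library as descriptions, and libraries were compared by calls and by ranks only. The consensus table holds positions, its 8 interval tracks are identical to the peak lists, and no read depth is given, so depth is unknown.

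Genes came from RefSeq on GRCm38.p6 (21900 protein-coding genes; 6 of 6 members matched). Regions within 1 kb of a gene's end count as at that end. Ranks were fitted with limma 3.58.1 (R 4.3.3) on all 4 genotypes without a replicate term. Overlaps and nearest genes were checked against bedtools 2.31.1. The rank test was run on simulated data, where it recovered 0 of 200 regions of middle rank shifted by 20 percentile points. Python 3.11.15, NumPy 2.4.6, SciPy 1.17.1, pandas 2.3.3 and matplotlib 3.10.9 were used. Alternatives were equal-number lists, a minimum −log10 q of 20, peaks that cover 50% or more of their region, a limit of 20 kb, the replicate block, another ranking, full-list ranks, and leaving out each library.

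Named were regions called in all 8 libraries, separated in a comparison, or within 1 kb of a gene's end. The members and lists were chosen with earlier results of these data known.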

Additional observations from a re-analysis of the deposited data

Results flagged for a closer look

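The Pdk1 start site ranked at percentile 62.8 in Cpt2 knockout 2, apart from 74.4 to 76.7 in the other 3 Ppara-intact libraries. It was 1 of 16 sets of 4 libraries checked for a value far from the rest, and chance gives about 1 such set in 20.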

How the results depend on the processing

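In equal-number lists the regions separated numbered 2 by Ppara status, 0, 3 and 2 for Cpt2, Ppara and double knockout relative to wild type, and 2 between the double and Cpt2 knockouts. With a minimum −log10 q of 20 these counts were 1, 0, 4, 3 and 2. Both alternatives hold fewer peaks by construction. Among the alternatives, shares of all regions were counted for equal-number lists only, so the other counts have no background beside them. A cover of 50% and a limit of 20 kb kept every count within 1.5 times. With each library left out in turn, where fewer libraries must differ, the counts ranged from 5 to 6 by Ppara status, 0 to 1 by Cpt2 status, 2 to 5 for Cpt2 knockout, 7 to 11 for Ppara knockout and 6 to 10 for double knockout relative to wild type, 7 to 10 between double and Cpt2 knockout and 0 to 2 between double and Ppara knockout. Without wild type 1, the Cpt2 knockout comparison gave 3 regions and turned in direction; the cause was not tested.

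With the replicate number as a block, a fully separated region had an exact permutation p of 0.0556 by either status, against 0.0286 without it, and again 0 of the 6 ranked regions passed with limma. Deviations of same-numbered libraries correlated at -0.026 to 0.058 over the 9073 regions. Ranks cannot show a shift of a whole library, so these values do not tell whether same-numbered libraries share more than a number. Alternatives for ranks were run for Ppara status only, and left-out libraries moved the difference to between -27.7 and -10.6 at the Pdk1 start site, 15.4 and 34.1 at Pdp1 and -17.9 and -6.51 at the Pdk2 start site. Rank differences changed sign at the Pdk2 inner region (-10.5) and the Pdk4 start site (-1.15) within full lists, and at the Pdp2 start site by fold (13.3) and with libraries left out in turn (-18.5 to 5.30, the latter without Ppara knockout 2); none was past the threshold, and the cause was not tested. Peak calls carry no read totals, so an uncalled region is one below the caller's cutoff and not one shown to be closed.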
